A study of Mus musculus with 32 samples.

Results

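Prostaglandin synthesis and signaling was followed through 8 genes in a mouse model of tendon lesions: the cyclooxygenases Ptgs1 and Ptgs2, the terminal synthases Ptges, Ptgis and Ptgds, the degrading enzyme Hpgd, and the prostaglandin E2 receptors Ptger2 and Ptger4. They were chosen by name as steps of 1 pathway, with earlier results of these data known. All 8 were found by their Ensembl identifiers among the 25700 genes counted. The samples came from assembloids, in which a tail tendon fascicle explant (the core) sits inside a collagen-1 hydrogel, and were collected at day 7. Total RNA was sequenced from 20 cores and 12 hydrogels after removal of ribosomal RNA. The comparisons ask how each compartment responded to cells placed beside it and to the loss of interleukin-6 (Il6) in the core.

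The cores came from B6.129S2-Il6tm1Kopf/J mice aged 12 to 15 weeks, either Il-6+/+ (WT) or Il-6-/- (KO), and each core sample pooled explants of 1 mouse. WT cores were cultured in a cell-free hydrogel, in one seeded with fibroblasts, or in one seeded with macrophages, and KO cores in a cell-free hydrogel or beside fibroblasts (4 samples in each of these 5 groups). The fibroblasts were passaged cells from Achilles tendons of WT mice, which the labels call mixed progenitors, pooled over several mice. The hydrogel itself was sequenced only in the assembloids with fibroblasts, in 6 samples around WT and 6 around KO cores. Its seeded cells are labelled Il-6+/+ in both groups, so that KO and WT in the hydrogel name the genotype of the core, and the samples also held cells that had moved out of the core. The KO allele is present in every cell of the mouse that gave the core. The co-culture medium of the assembloids contained serum and macrophage-colony stimulating factor.

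Prostaglandins are made when arachidonic acid, freed from membranes by phospholipases, is turned into prostaglandin H2 by a cyclooxygenase and then into 1 final prostanoid by a terminal synthase. Prostaglandin E2 acts through receptors that include EP2 and EP4, which raise cyclic AMP. After uptake into cells it is inactivated by the dehydrogenase Hpgd. In tendon, prostaglandin E2 is known as a mediator of inflammation and pain, and its synthesis responds to interleukin-1, to tumor necrosis factor and to mechanical load.

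The upstream sequences of 3 members that take part in making prostaglandin E2, Ptgs2, Ptgs1 and Ptges, are shown as a description. They run from 250 bases before to 30 bases after the annotated start (280 bases, RefSeq, build GRCm38.p6, written in the direction of transcription) and lie at chr1:150099781-150100060 on the + strand for Ptgs2, chr2:36230176-36230455 on the + strand for Ptgs1 and chr2:30903268-30903547 on the - strand for Ptges. Capitals mark exact matches, on either strand, to the letters of 5 motifs, C/EBP (TTGCGCAA), CRE (ACGTCA), E-box (CACGTG), GC box (GGGCGG) and AP-1 (TGACTCA), or to the NF-kB consensus.
Ptgs2: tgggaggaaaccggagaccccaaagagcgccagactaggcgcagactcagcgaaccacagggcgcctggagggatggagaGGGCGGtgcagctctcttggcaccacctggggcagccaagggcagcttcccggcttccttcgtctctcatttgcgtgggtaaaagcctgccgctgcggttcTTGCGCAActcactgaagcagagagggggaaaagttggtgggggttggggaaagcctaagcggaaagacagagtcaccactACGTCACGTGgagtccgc
Ptgs1: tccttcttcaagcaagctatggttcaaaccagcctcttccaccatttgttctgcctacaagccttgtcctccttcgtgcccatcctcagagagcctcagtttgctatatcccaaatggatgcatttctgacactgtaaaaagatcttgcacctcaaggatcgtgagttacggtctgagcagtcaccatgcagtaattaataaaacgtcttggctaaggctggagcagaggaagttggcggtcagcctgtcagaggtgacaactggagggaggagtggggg
Ptges: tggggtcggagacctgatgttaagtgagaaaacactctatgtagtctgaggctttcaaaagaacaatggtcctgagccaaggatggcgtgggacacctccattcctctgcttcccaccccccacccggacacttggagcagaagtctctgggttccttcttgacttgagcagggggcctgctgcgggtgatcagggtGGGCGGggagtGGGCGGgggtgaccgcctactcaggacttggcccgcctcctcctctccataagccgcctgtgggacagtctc
The Ptgs2 sequence held the C/EBP letters at positions -69 to -62, which 0.181% of the 27025 promoters of the same length also held. It also held a GC box at -170 to -165 (34.9% of promoters), the CRE letters at 13 to 18 (7.40%) and the E-box letters at 17 to 22 (6.89%), the last overlapping the CRE. Ptges held 2 GC boxes, at -53 to -48 and at -42 to -37, and Ptgs1 held none of these motifs. Neither the AP-1 letters (4.89% of promoters) nor the NF-kB consensus (0.137%) occurred in these 3 windows. A match is a description of the letters only.

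Levels are given in CPM (counts per mega counts, M), scaled by the trimmed mean of M values (TMM) over all 32 samples, whose totals ran from 20.4 to 59.9 M counts. Fold changes and their standard errors (SE) come from edgeR's quasi-likelihood test on the 2 groups compared, over 15227 to 16441 genes per comparison. A gene was called when its log2 fold change passed 0.5 in size and its adjusted p was below 0.05. For KO against WT in the hydrogel and in cores beside fibroblasts the study's own threshold was used, the same fold with the unadjusted p below 0.05. Ptgds had too few counts to be tested, so that 7 of the 8 members entered the tests. Exact permutation tests (two-sided) compared log2 CPM between groups, and the smallest p they can give is 0.0286 for 4 against 4 samples. All tests took the samples as unpaired unless a block is named, such as the replicate block, which pairs matching samples. An exact p of 0.0286 therefore holds only if the samples are independent. With 4 pairs it cannot be under 0.125. Some comparisons share samples: the WT cores beside cell-free hydrogels stand on the lower side of 3 of them, and those beside fibroblasts enter 4, so their results are not independent. In bulk RNA, fewer cells of a type and less RNA per cell cannot be told apart.

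Il6, the targeted gene, was counted in every sample, at 6.40 to 37.2 CPM in the 8 cores labelled KO, and its level therefore does not separate the labels. Its mean was higher under the KO label in each matched pair of groups: 10.4 ± 6.39 against 6.01 ± 4.19 CPM in cell-free hydrogels, 19.9 ± 11.8 against 8.06 ± 3.08 CPM beside fibroblasts (SD, n = 4 each) and 16.0 ± 13.2 against 7.74 ± 2.35 CPM in the hydrogel (SD, n = 6 each). The paper measured IL-6 protein in supernatants of both core genotypes in cell-free hydrogels and describes the KO assembloids as having reduced IL-6. Counts of RNA do not test for the protein. KO below means the label. All 8 tenocyte markers averaged over 1 CPM in every group, and so did all 16 markers of macrophages and leukocytes, including in groups to which no macrophages were added. The summed level of the latter was 5990 to 13498 CPM in WT cores beside macrophages and 10533 to 14548 CPM in WT cores beside cell-free hydrogels, so the cores beside macrophages did not carry more of them. In the hydrogel the sum was 10698 to 19848 CPM around WT cores and 2434 to 34743 CPM around KO cores, where replicate 1 was the highest and replicate 5 the lowest.

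The largest differences lay between the compartments. In WT assembloids, 5 of the 7 tested members were called between hydrogel and core, where 42.8% of all genes were called, and their values did not overlap (56.4% of all genes). Ptgs1, Ptgs2, Ptges and Hpgd were higher in the hydrogel and Ptgis was lower. In KO assembloids the same 5 genes were called in the same directions (41.6% of all genes), and 3 of the 7 did not overlap (44.8%). These samples are of different tissue origin, and a member count of that size has to be read against backgrounds of this size. The genotype of the core did not shift these differences detectably: in a test of the genotype by compartment interaction, chosen after seeing the data, edgeR called 0 of 16603 genes (0%, with 620 genes at an unadjusted p under 0.05), and no member had an unadjusted p under 0.05.

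With KO in place of WT cores, Ptgs2 was the only member called in the hydrogel (0.755% of all genes) and in the core beside fibroblasts (2.44%). In neither comparison did any member separate the groups completely, which 0.177% and 4.61% of all genes did. In cores in cell-free hydrogels, edgeR called 0 of 16065 genes for KO against WT (0%, with 339 genes at an unadjusted p under 0.05 and 13 called by DESeq2). Of the members, 2 (Ptges and Ptger4) had an unadjusted p under 0.05 there and DESeq2 called 0, while Ptger4 did not overlap between the groups (1.59% of all genes). The 3 comparisons differ in threshold as well as in samples, and their members are described 1 by 1 below.

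Cores beside seeded cells were compared with cores in cell-free hydrogels and with each other. Beside fibroblasts, edgeR called 0 members in WT cores (2.61% of all genes). There 3 members had an unadjusted p under 0.05 (21.3% of all genes), DESeq2 called 1, Hpgd (774 of all 16188 genes), and only Ptges did not overlap (13% of all genes). In KO cores the count was also 0 (0.432% of all genes), with 3 members at an unadjusted p under 0.05 (11.7% of all genes) and 0 called by DESeq2 (502 of all 15965 genes), and no member was free of overlap (6.58%). When cores of the same replicate number were paired in the fit, edgeR called Hpgd lower in both genotypes, among 511 genes in WT and 408 genes in KO cores. Beside macrophages, Ptgs1 alone was called against cell-free hydrogels (4.6% of all genes) and alone did not overlap (14.8%). Against cores beside fibroblasts, those beside macrophages had 3 called members, Ptgs2, Ptges and Hpgd (10.8% of all genes), of which Ptges did not overlap (26.9%). For the genotype by fibroblast interaction, edgeR called 0 of 16772 genes (0%), with 504 at an unadjusted p under 0.05 and 1 called by DESeq2. No member reached an unadjusted p under 0.05 in it.

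**Figure D1:**
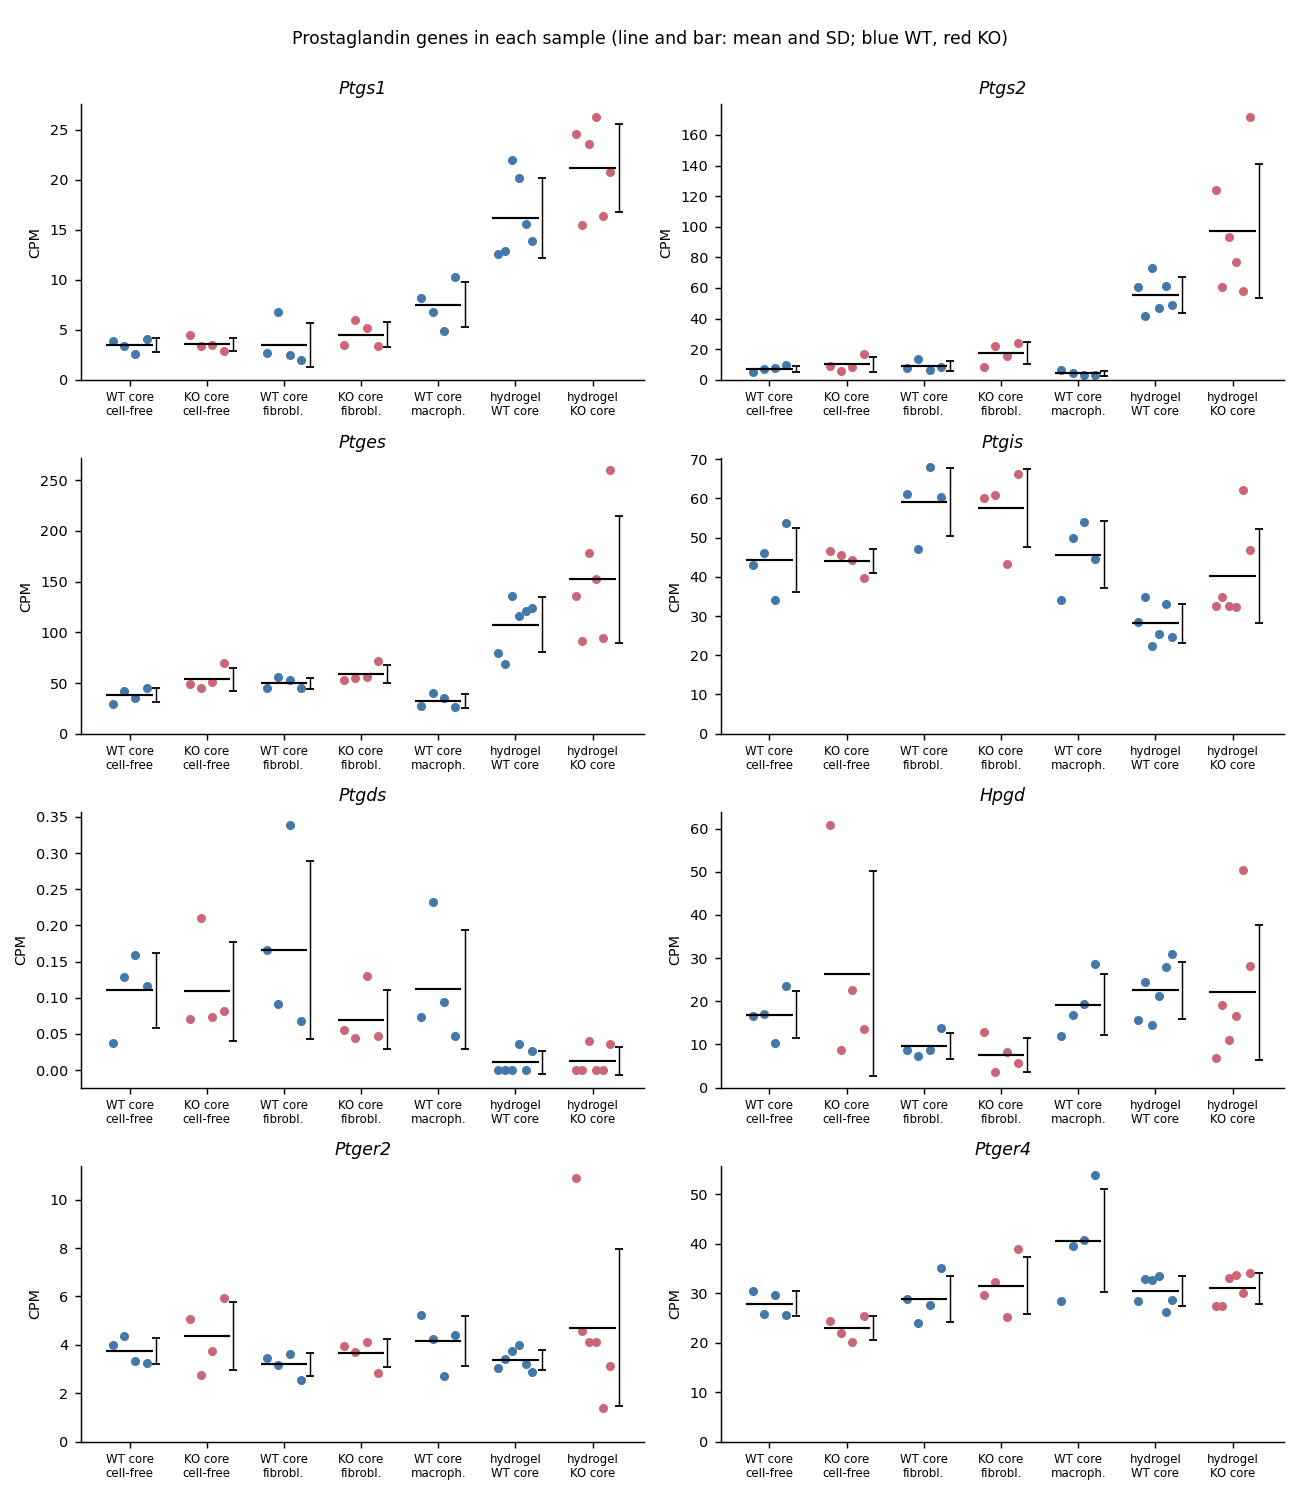
Level of each of the 8 genes in CPM (linear y axis from about 0, 1 panel per gene) in the 5 core groups and the 2 hydrogel groups; each point is 1 sample, blue for WT and red for cores labelled KO, with the mean (line) and SD (bar). Ptgs1, Ptgs2 and Ptges are higher in all 12 hydrogels than in the cores of the same genotype beside fibroblasts, Ptgds is at or near 0 in the hydrogels, and Ptger4 stays within 20.1 to 54.0 CPM throughout.

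Ptgs2 (ENSMUSG00000032487) encodes the inducible cyclooxygenase, COX-2, and had the largest ratio of highest to lowest level among the 7 tested members, 55.4, from 3.09 to 171 CPM over the 32 samples. In the hydrogel around WT cores its lowest, median and highest levels were 41.4, 54.8 and 73.1 CPM, and around KO cores they were 57.8, 85.1 and 171 CPM. Of the 6 samples around KO cores, 4 lay above every sample around WT cores, replicates 1 and 6 farthest, while replicates 2 and 5 lay inside the WT range. Replicate 1 also had the highest sum of macrophage and leukocyte markers of the 12 hydrogels (34743 CPM) and replicate 5, the lowest of the KO group for Ptgs2, the lowest sum (2434 CPM), whereas replicate 6, the highest for Ptgs2, had 13141 CPM, inside the range around WT cores. Ptgs2 stayed past the study's threshold without replicate 1 (log2 fold change 0.72, unadjusted p = 0.0203 from edgeR) and without replicate 5 (0.92, unadjusted p = 0.00271). The means were 55.3 ± 11.7 and 97.3 ± 43.7 CPM (SD, n = 6 each). Ptgs2 rose by a log2 fold change of 0.79 (SE 0.26, 95% interval 0.29 to 1.30, unadjusted p = 0.00882 from edgeR). After adjustment over 15227 genes p was 1.00, and no gene passed that adjustment (404 genes, 2.65%, had an unadjusted p under 0.05). The exact permutation test gave p = 0.0260, where the smallest possible was 0.00216. The sample titles carry a 3-digit code with 3 values, whose meaning the labels do not give, and Ptgs2 was higher around KO cores within each of the 3, with ratios of the means between 1.42 and 2.08.

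In cores beside fibroblasts Ptgs2 stood at 7.42, 13.5, 6.34 and 8.02 CPM in WT replicates 1 to 4 and at 8.35, 22.3, 15.7 and 23.9 CPM in KO replicates 1 to 4. All but KO replicate 1 lay above the WT samples. The log2 fold change was 0.98 (SE 0.33, 95% interval 0.34 to 1.63), with an unadjusted p of 0.0130 and an adjusted p of 0.526 from edgeR, and the exact permutation test gave p = 0.0571. Within the title codes, KO was higher in 3 of 3, with ratios from 1.13 to 2.97. In cell-free hydrogels the level was 4.81, 7.26, 7.39 and 9.53 CPM in WT cores and 9.11, 5.82, 8.54 and 17.0 CPM in KO cores. There the groups overlapped, and the log2 difference of 0.48 (SE 0.32, 95% interval -0.14 to 1.11) did not pass (unadjusted p = 0.162 from edgeR). Whether the genotype effect depended on fibroblasts was tested directly. The interaction was 0.50 (SE 0.50, 95% interval -0.47 to 1.48, unadjusted p = 0.324 from edgeR), so that the 2 genotype effects were not shown to differ.

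Fibroblasts beside a WT core left Ptgs2 at a log2 fold change of 0.26 (SE 0.26), and beside a KO core the value was 0.77 (SE 0.37, unadjusted p = 0.0637 from edgeR, adjusted p = 0.463). Beside macrophages, WT cores had 6.64, 4.29, 3.09 and 3.16 CPM of Ptgs2, and 3 of these 4 values were below all cores in cell-free hydrogels. That difference was -0.79 on the log2 scale (SE 0.28, adjusted p = 0.135 from edgeR, exact permutation p = 0.0571). Against cores beside fibroblasts Ptgs2 fell, with a log2 fold change of -1.03 (SE 0.29, adjusted p = 0.0367 from edgeR), and again 3 of 4 samples were below the other group. This call was lost without replicate 1, 2 or 4 of the cores beside fibroblasts or replicate 2 or 3 of those beside macrophages, with an adjusted p of up to 0.0876. It was also lost with library totals as the scaling (-0.82, adjusted p = 0.0777 from edgeR) and with all 7 groups in 1 fit (-1.04, adjusted p = 0.0732).

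Between compartments Ptgs2 gave the largest fold of the 7 tested members. Hydrogels around WT cores held 55.3 CPM on average and their cores 8.82 ± 3.19 CPM (SD, n = 4), a log2 fold change of 2.59 (SE 0.23, adjusted p = 2.27e-06 from edgeR). In KO assembloids the core mean was 17.6 ± 7.09 CPM (SD, n = 4) and the log2 fold change 2.41 (SE 0.39, adjusted p = 5.00e-04 from edgeR). The lowest hydrogel sample, at 41.4 CPM, was above the highest core sample, at 23.9 CPM.

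Ptgs1 (ENSMUSG00000047250), which encodes the constitutive cyclooxygenase COX-1, was a rare transcript in the core and moved with macrophages. It stood at 3.92, 3.35, 2.60 and 4.04 CPM in WT cores in cell-free hydrogels and at 8.14, 6.81, 4.89 and 10.3 CPM in WT cores beside macrophages. The groups did not overlap. Ptgs1 rose by a log2 fold change of 1.07 (SE 0.24, 95% interval 0.60 to 1.54, adjusted p = 0.0302 from edgeR, exact permutation p = 0.0286, the smallest possible). The adjusted p ran from 0.0278 to 0.0783 when 1 sample was left out, and the call was lost without cell-free replicate 1, 2 or 3 or macrophage replicate 1 or 2. Macrophages are known to express Ptgs1. Between the same groups the median log2 difference of the 16 markers of macrophages and leukocytes was -0.41, with 0 called higher and 2, Itgam and Cd14, called lower. The part that the mixture of cells had in the rise was not tested.

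Beside fibroblasts, WT cores had 2.70, 6.81, 2.51 and 1.99 CPM of Ptgs1, and replicate 2 stood far above the other 3. The log2 fold change against cell-free hydrogels was -0.01 (SE 0.36, 95% interval -0.72 to 0.70). Macrophages against fibroblasts gave 1.10 (SE 0.37, adjusted p = 0.0617 from edgeR), which passed with the replicate block (1.19, adjusted p = 0.0413), with DESeq2 (1.11, adjusted p = 0.0159), with library totals (1.27, adjusted p = 0.0335), with all 7 groups in 1 fit (1.09, adjusted p = 0.0208) and without replicate 2 of the cores beside fibroblasts (1.65, adjusted p = 0.00927). KO cores had 4.46, 3.42, 3.49 and 2.90 CPM in cell-free hydrogels and 3.52, 5.93, 5.19 and 3.37 CPM beside fibroblasts. KO against WT gave 0.05 (SE 0.21) in the former and 0.36 (SE 0.37) in the latter, and neither passed. Without WT replicate 2, the difference beside fibroblasts was 0.91 (unadjusted p = 0.00328 from edgeR), past the study's threshold.

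In the hydrogel the lowest, median and highest levels of Ptgs1 were 12.6, 14.7 and 22.0 CPM around WT cores and 15.5, 22.2 and 26.3 CPM around KO cores. The groups overlapped, with 3 of 6 KO samples above all WT samples. The log2 fold change was 0.37 (SE 0.18, unadjusted p = 0.0575 from edgeR, exact permutation p = 0.0736), just over the threshold for p and under that for the fold. Every one of the 12 hydrogels was above every core. Hydrogel over core came to 2.14 (SE 0.32, adjusted p = 1.09e-04 from edgeR) in WT and 2.17 (SE 0.23, adjusted p = 4.53e-05) in KO assembloids.

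The balance of the cyclooxygenases was measured as the ratio of their counts within each sample. Beside macrophages, WT cores held 0.309 to 0.817 counts of Ptgs2 per count of Ptgs1, whereas WT cores in cell-free hydrogels held 1.23 to 2.83 and every other sample 1.70 or more. The mean log2 ratio was lower by -1.86 (SE 0.40, n = 4 each), and the exact permutation test gave p = 0.0286, the smallest possible, or 0.229 after adjustment over the 8 ratio comparisons made. The groups did not overlap, so that the excess of Ptgs2 over Ptgs1 counts seen in all other groups was turned around in these 4 cores. Between KO and WT in the hydrogel, the log2 ratio differed by 0.33 (SE 0.26, exact permutation p = 0.229).

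**Figure D2:**
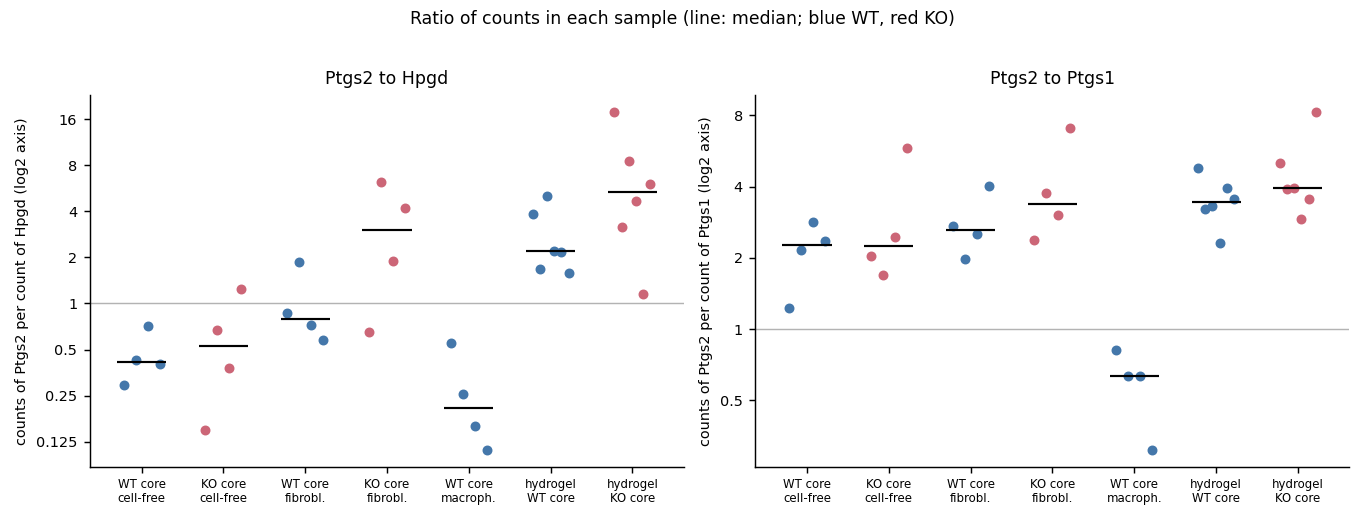
Counts of Ptgs2 per count of Hpgd (left) and per count of Ptgs1 (right) in each sample, on log2 axes, for the 5 core groups and the 2 hydrogel groups; points are samples, blue for WT and red for cores labelled KO, lines are medians, and the gray line marks equal counts. The 4 WT cores beside macrophages are the samples with fewer counts of Ptgs2 than of Ptgs1.

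Ptges (ENSMUSG00000050737) encodes the inducible microsomal prostaglandin E synthase, which works together with COX-2, and was one of the most abundant members per kilobase of exon, with 9.67 ± 1.77 CPM per kb (SD, n = 4) in WT cores in cell-free hydrogels. Its level in these cores was 29.5, 42.3, 35.3 and 44.9 CPM. Beside fibroblasts it was 45.0, 55.9, 52.5 and 45.5 CPM, above every cell-free core, and the log2 difference was 0.36 (SE 0.13, exact permutation p = 0.0286). Over all genes it did not pass (adjusted p = 0.146 from edgeR), and the fold was below the threshold. Beside macrophages Ptges stood at 27.2, 40.5, 35.0 and 26.6 CPM, below every core beside fibroblasts. Ptges fell there by a log2 fold change of -0.61 (SE 0.14, adjusted p = 0.0171 from edgeR, exact permutation p = 0.0286), and the adjusted p was 0.0508 without replicate 3 of the cores beside fibroblasts. The call was lost with library totals as the scaling, where the fold was under the threshold (-0.43, adjusted p = 0.0497 from edgeR), and with all 7 groups in 1 fit (-0.62, adjusted p = 0.105).

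KO cores had 49.2, 44.7, 50.6 and 69.7 CPM of Ptges in cell-free hydrogels, all but 1 above the WT cores. The log2 fold change was 0.50 (SE 0.17, unadjusted p = 0.0160 from edgeR, exact permutation p = 0.0571), and the adjusted p was 1.00. Beside fibroblasts KO cores had 52.9, 55.0, 56.4 and 72.0 CPM, 0.25 higher on the log2 scale than WT cores (SE 0.11, unadjusted p = 0.0414 from edgeR), with a fold under the threshold. In the hydrogel the lowest, median and highest levels were 68.5, 118 and 136 CPM around WT cores and 91.8, 144 and 260 CPM around KO cores. The log2 difference of 0.48 (SE 0.26, unadjusted p = 0.0845 from edgeR, exact permutation p = 0.141) did not pass, although KO was higher within each of the 3 title codes, with ratios from 1.32 to 1.54. Replicate 6 around KO cores was the highest hydrogel for both Ptges and Ptgs2.

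The hydrogel held more Ptges than the core in both genotypes and without overlap, with log2 fold changes of 1.06 (SE 0.18, adjusted p = 2.92e-04 from edgeR) for WT and 1.30 (SE 0.28, adjusted p = 0.00270) for KO assembloids.

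Ptgis (ENSMUSG00000017969) encodes prostacyclin synthase, the terminal enzyme of the branch that opposes platelet aggregation and widens vessels, and it was the only one of the 7 tested members called lower in the hydrogel than in the core. Cores beside fibroblasts held 61.0, 47.0, 68.0 and 60.4 CPM (WT) and 60.0, 60.8, 43.4 and 66.3 CPM (KO). The hydrogels around WT cores ranged from 22.4 to 35.0 CPM with a median of 27.0 CPM, below all their cores, and those around KO cores ranged from 32.4 to 62.2 CPM with a median of 33.8 CPM. Ptgis fell from core to hydrogel by a log2 fold change of -1.12 (SE 0.13, adjusted p = 1.72e-05 from edgeR) in WT and -0.59 (SE 0.20, adjusted p = 0.0248) in KO assembloids.

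In KO assembloids the groups overlapped through replicates 5 and 6 of the hydrogel, at 62.2 and 46.8 CPM, the exact permutation test gave p = 0.0667, and the call was lost in 7 of the 10 fits that left out 1 sample. The genotype by compartment difference was 0.57 (SE 0.28, unadjusted p = 0.0545 from edgeR) and 0.53 (SE 0.21, unadjusted p = 0.0230, adjusted p = 0.811) with the replicate block. Between KO and WT in the hydrogel, Ptgis differed by 0.49 on the log2 scale (SE 0.18, unadjusted p = 0.0158 from edgeR, exact permutation p = 0.0303), with the p under and the fold just short of the study's threshold. Replicate 5 around KO cores had the highest Ptgis and the lowest sum of macrophage and leukocyte markers, 2434 CPM, of the 12 hydrogels. Their part in the result was not tested.

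Cells placed beside the core gave no called change in Ptgis. It stood at 42.9, 46.1, 34.0 and 53.8 CPM in WT cores in cell-free hydrogels and at 39.6 to 46.5 CPM in KO cores. Fibroblasts gave log2 differences of 0.39 (SE 0.14, adjusted p = 0.149 from edgeR) in WT and 0.37 (SE 0.13, adjusted p = 0.297) in KO cores, and macrophages gave 0.01 (SE 0.17). Among cores, KO and WT differed by -0.00068 (SE 0.13) in cell-free hydrogels and by -0.03 (SE 0.14) beside fibroblasts.

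Ptgds (ENSMUSG00000015090), which encodes the lipocalin-type prostaglandin D synthase, was barely present. The 20 cores held 1 to 10 counts each, 0.037 to 0.339 CPM. Of the 12 hydrogels, 8 had no count, which allows up to 0.0650 to 0.126 CPM at 3 counts per library, and the other 4 had 1 or 2 counts. All hydrogels were below all cores of their own genotype beside fibroblasts (exact permutation p = 0.00476 for WT, the smallest possible, and 0.00952 for KO), from counts too low for edgeR's filter. Counting error weighs heavily at this level, and no fold is given.

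Hpgd (ENSMUSG00000031613) encodes the dehydrogenase that inactivates prostaglandin E2 and had the widest range among the 20 cores of the 8 members, with the highest level 17.1 times the lowest. WT cores in cell-free hydrogels had 16.5, 17.1, 10.4 and 23.6 CPM and WT cores beside fibroblasts 8.60, 7.24, 8.71 and 13.9 CPM. Of the latter, 3 of 4 were below all cell-free cores. The log2 difference was -0.84 (SE 0.26, 95% interval -1.35 to -0.34, adjusted p = 0.0967 from edgeR, exact permutation p = 0.0571), and with the replicate block, which pairs these samples, it passed (-0.83, adjusted p = 0.0321). DESeq2 also called it (adjusted p = 0.0194). KO cores had 60.9, 8.69, 22.5 and 13.6 CPM in cell-free hydrogels and 12.8, 3.55, 8.34 and 5.69 CPM beside fibroblasts. This difference was -1.82 (SE 0.59, 95% interval -2.98 to -0.66, adjusted p = 0.238 from edgeR), and -1.61 with the replicate block, where it passed (adjusted p = 0.00510). The interaction of genotype and fibroblasts for Hpgd was -0.99 (SE 0.71, unadjusted p = 0.179 from edgeR).

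Replicate 1 of the KO cores in cell-free hydrogels, at 60.9 CPM the highest of all 32 samples for Hpgd, also had the highest sum of macrophage and leukocyte markers among cores, 20018 CPM against 6823 to 12950 CPM in the other 3 of its group. In the hydrogels the order was the other way. Replicate 5 around KO cores had the highest Hpgd (50.4 CPM) with the lowest marker sum, and replicate 1 had the lowest Hpgd (6.96 CPM) with the highest sum, 34743 CPM. The part of these cells in the Hpgd level was not tested.

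Beside macrophages Hpgd stood at 12.005, 16.7, 19.5 and 28.6 CPM. The log2 fold change was 0.14 (SE 0.29) over cell-free hydrogels and 1.00 (SE 0.27, adjusted p = 0.0294 from edgeR) over fibroblasts. The latter rise was lost without replicate 1, 2 or 3 of the cores beside fibroblasts or replicate 3 of those beside macrophages, and with all 7 groups in 1 fit (1.00, adjusted p = 0.200 from edgeR). In the hydrogel the lowest, median and highest levels were 14.5, 22.9 and 31.0 CPM around WT cores and 6.96, 17.9 and 50.4 CPM around KO cores, and the log2 difference was -0.05 (SE 0.40, 95% interval -0.84 to 0.73). Hydrogel over core gave 1.17 (SE 0.25, adjusted p = 0.00116 from edgeR) without overlap in WT assembloids. In KO assembloids it gave 1.44 (SE 0.54, adjusted p = 0.0431) with overlap, and 7 of the 10 fits that left out 1 sample lost this call.

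Set against each other within a sample, the RNA counts of Ptgs2, for synthesis, and Hpgd, for breakdown, gave ratios over a wide range. The counts were not scaled by exon length (4580 and 1683 bases), and no prostaglandin was measured. There were 0.292 to 0.709 counts of Ptgs2 per count of Hpgd in WT cores in cell-free hydrogels, 0.577 to 1.86 beside fibroblasts and 0.111 to 0.554 beside macrophages. KO cores beside fibroblasts reached 0.652 to 6.26, and the hydrogels 1.59 to 5.04 around WT and 1.15 to 17.8 around KO cores. None of the 4 differences tested in this ratio passed. The closest was fibroblasts over cell-free in WT cores, with a log2 difference of 1.06 (SE 0.45, exact permutation p = 0.0571, adjusted over the 8 ratio comparisons 0.229). KO over WT came to 0.99 (SE 0.61, exact permutation p = 0.139) in the hydrogel and to 1.39 (SE 0.81, exact permutation p = 0.171) in cores beside fibroblasts.

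Neither receptor was called in the fits of 2 groups in any of the 9 comparisons, but Ptger4 passed beside macrophages under other settings. Ptger4 (ENSMUSG00000039942), which encodes EP4, was 28.4 to 54.0 CPM in WT cores beside macrophages, where 3 of 4 samples (39.5, 40.7 and 54.0 CPM) were above all WT cores in cell-free hydrogels (25.6 to 30.5 CPM). The log2 difference was 0.51 (SE 0.17, adjusted p = 0.117 from edgeR) and passed without macrophage replicate 1 (0.66, adjusted p = 0.0337), with library totals (0.60, adjusted p = 0.0403) and with all 7 groups in 1 fit (0.54, adjusted p = 0.0282). Over cores beside fibroblasts it was 0.50 (SE 0.18, adjusted p = 0.0726 from edgeR), which passed with DESeq2 (0.51, adjusted p = 0.0399), with library totals (0.68, adjusted p = 0.00894) and without macrophage replicate 1. KO cores in cell-free hydrogels, at 20.1 to 25.4 CPM, were all below the WT cores. The log2 difference was -0.28 (SE 0.12, exact permutation p = 0.0286, unadjusted p = 0.0400 and adjusted p = 1.00 from edgeR).

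Beside fibroblasts Ptger4 ran from 24.0 to 35.2 CPM in WT and from 25.2 to 38.9 CPM in KO cores. The effect of fibroblasts was 0.03 (SE 0.12) in WT and 0.43 (SE 0.14, adjusted p = 0.247 from edgeR) in KO cores, and the interaction was 0.40 (SE 0.19, unadjusted p = 0.0518 from edgeR). In the 12 hydrogels the level stayed between 26.2 and 34.1 CPM, with a difference between KO and WT of 0.01 on the log2 scale (95% interval -0.16 to 0.18), the narrowest interval of the 7 members in that comparison. Ptger4 overlaps Ttc33 on the other strand, which had up to 1885 counts.

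Ptger2 (ENSMUSG00000037759), which encodes EP2, was rarer, with 2.53 to 5.92 CPM in the 20 cores and 2.89 to 4.00 CPM in the hydrogels around WT cores. Around KO cores it stood at 10.9, 4.57, 4.12, 4.11, 1.40 and 3.11 CPM in replicates 1 to 6. The highest of these was the sample with the highest sum of macrophage and leukocyte markers and the lowest the one with the lowest sum, and their part was not tested. In none of the 9 comparisons of groups did Ptger2 have an unadjusted p under 0.05. For KO against WT in the hydrogel the log2 difference was 0.46 (SE 0.36, 95% interval -0.24 to 1.16), wide enough to include more than a doubling.

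**Figure D3:**
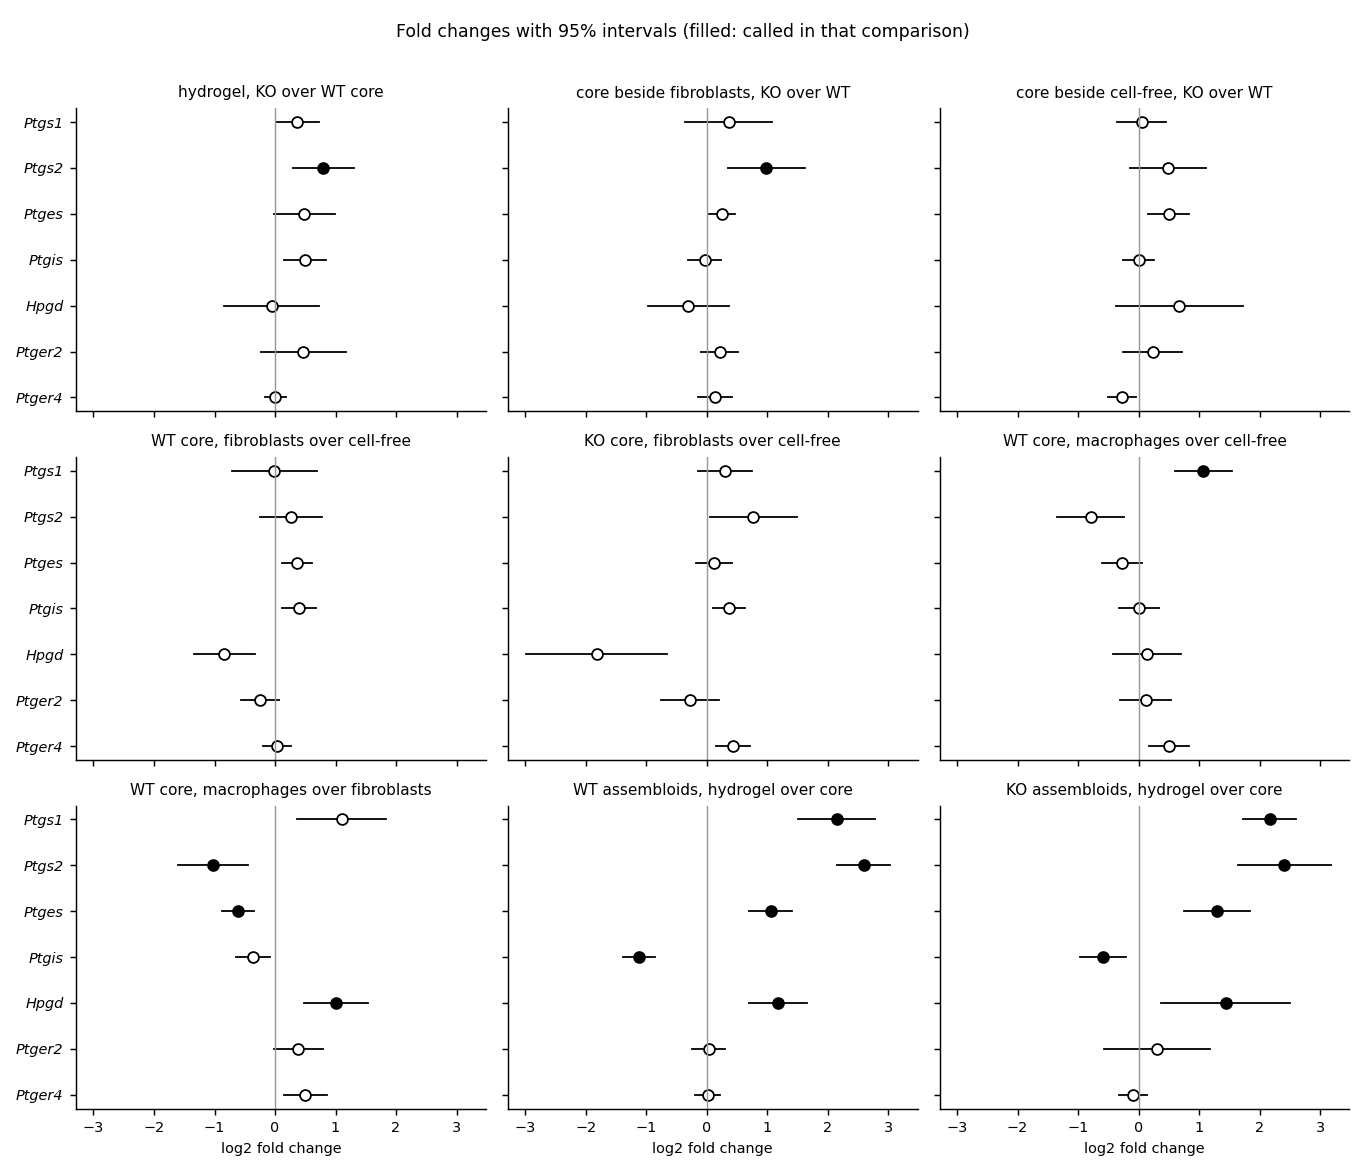
Log2 fold change of the 7 tested members in 9 comparisons (1 panel each), with points at the edgeR estimate, lines at 1.96 SE to either side, and filled points for genes called in that comparison. The called points are Ptgs2 for KO over WT in the hydrogel and in cores beside fibroblasts, Ptgs1 for macrophages over cell-free, Ptgs2, Ptges and Hpgd for macrophages over fibroblasts, and 5 members in each hydrogel over core panel.

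Taken per kilobase of merged exons, so that genes can be set beside each other, the WT cores in cell-free hydrogels held most Ptgis (17.2 ± 3.18 CPM per kb), then Hpgd (10.0 ± 3.21) and Ptges (9.67 ± 1.77), which did not differ beyond their SD, then Ptger4 (4.19 ± 0.381), Ptgs2 (1.58 ± 0.422), Ptgs1 (0.896 ± 0.170) and Ptger2 (0.721 ± 0.104; SD, n = 4). In the hydrogel around WT cores the order was Ptges (27.3 ± 6.87 CPM per kb), Hpgd (13.4 ± 3.92), Ptgs2 (12.1 ± 2.55), Ptgis (11.0 ± 1.94), Ptger4 (4.57 ± 0.453), Ptgs1 (4.17 ± 1.02) and Ptger2 (0.650 ± 0.0818; SD, n = 6). The SDs of Hpgd, Ptgs2 and Ptgis met, as did those of Ptger4 and Ptgs1. Around KO cores Ptgs2 stood at 21.2 ± 9.54 CPM per kb (SD, n = 6), second to Ptges at 38.7 ± 15.9. On this scale the WT cores in cell-free hydrogels led with prostacyclin synthase and the hydrogels with prostaglandin E synthase. The lead in the cores depends on the exon length used. In CPM alone, these cores held 38.0 ± 6.95 of Ptges and 44.2 ± 8.17 of Ptgis (SD, n = 4). KO cores in cell-free hydrogels held 53.5 CPM of Ptges and 44.0 CPM of Ptgis on average.

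The pathway around the members was followed in 100 listed genes: phospholipases, the other prostanoid synthases and receptors, transporters and breakdown, the leukotriene branch, glucocorticoid and lipid brakes, inducers of Ptgs2 and Ptges, and the cyclic AMP response. In the hydrogel 3 of 84 tested genes rose with KO cores (0.506% of all genes) and 0 fell (0.25%): Slco2a1, the prostaglandin uptake transporter (log2 fold change 0.74), the cytokine Il1a (1.23) and the early response factor Egr1 (0.51). The members had a median log2 fold change of 0.46 there, against -0.01 for all genes tested. In cores beside fibroblasts 7 of 85 rose (1.55% of all genes) and 0 fell (0.883%). Among them were Slco2a1 (1.10), the phosphatase Dusp1 (0.64) and the transcriptional regulators Nfkbiz (0.52), Egr1 (0.95) and Cebpd (0.56). The others were the cyclic AMP-responsive receptors Nr4a1 (0.96) and Nr4a2 (0.50). In cell-free hydrogels, where edgeR called no gene of any kind for KO against WT, this held for the 84 tested pathway genes too.

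Beside fibroblasts 2 of 85 pathway genes rose in WT cores (1.51% of all genes), the lipase Mgll (0.77) and Ptgfrn (0.59), a partner that dampens the prostaglandin F receptor. Another 3 fell (1.11% of all genes): the hematopoietic prostaglandin D synthase Hpgds (-0.60), Gstm1 (-0.66) and the protein kinase A subunit Prkar2b (-0.57). In KO cores Nr4a2 alone rose (1.96; 0.301% of all genes) and 0 of 85 fell (0.132%). Beside macrophages, against cell-free hydrogels, 3 of 88 genes rose (0.754% of all genes), the cytokine Il1b (4.22), the leukotriene receptor Cysltr2 (1.93) and the secreted phospholipase Pla2g2d (1.30), and 9 fell (3.85%). Among these 9 were Pla2g4a, the phospholipase that supplies arachidonic acid (-1.19), the leukotriene enzymes Alox5 (-1.46) and Alox5ap (-1.15), Tnf (-2.77) and the growth factor Areg (-3.30). Against fibroblasts 6 of 87 rose (5.28% of all genes) and 13 fell (5.5%), with Pla2g4a again lower (-0.89), the thromboxane synthase Tbxas1 higher (0.62) and Nr4a2 lower (-1.38).

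From core to hydrogel, 23 of 87 pathway genes rose and 17 fell in WT assembloids, where 18.1% of all genes rose and 24.7% fell, and 20 rose and 14 fell in KO assembloids, where 17% of all genes rose and 24.6% fell. Of the 10 other prostanoid synthases 5 rose in WT and 7 in KO assembloids, and 0 fell in either, against the same backgrounds, with Ptges2 at 0.64 and 0.76 and Prxl2b, a prostaglandin F synthase, at 1.06 and 1.23. The median of this list was 0.51 and 0.65, against 0.00 for all genes in both. Abcc4, an exporter of prostaglandin E2, rose by 0.80 and 0.89, Pla2g4a by 0.80 and 0.88, and the breakdown enzyme Ptgr1 by 0.60 and 0.80. Ptgfrn was lower, at -1.10 and -1.09. The members' own medians were 1.06 and 1.30.

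**Figure D4:**
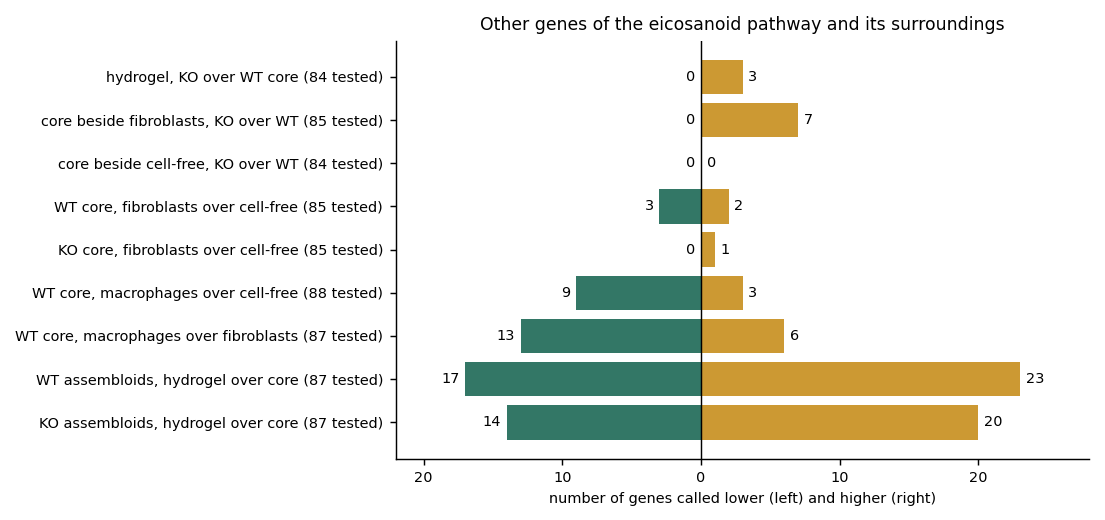
Number of the listed pathway genes called lower (bars to the left) and higher (bars to the right) in each of 9 comparisons, with the number tested in brackets; the first and second bars use the unadjusted threshold and the others the adjusted one. The counts run from 0 of 84 for KO over WT in cell-free hydrogels to 23 higher and 17 lower of 87 for hydrogel over core in WT assembloids.

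The genes with the pattern most like each member were sought by the root mean square difference of centered log2 CPM over the 32 samples, among 12816 genes with a mean of at least 1 CPM. Nearest to Ptgs2 were Ereg (0.53), Cx3cl1 (0.60) and Net1 (0.60), where Ereg encodes a ligand of the epidermal growth factor receptor and Cx3cl1 a chemokine. Nearest to Ptgs1 were Arl4c (0.49), Ahr (0.54) and Tpbg (0.55), and to Ptges Dpy19l1 (0.26), Rac3 (0.29) and C1qtnf5 (0.33). Ptgis was closest to Nedd9, Arl5b and Lhfp (0.22 to 0.23), Hpgd to Vnn1, Abca8a and Gprin3 (0.58 to 0.62), Ptger2 to Hvcn1, Cln3 and Tpra1 (0.29 to 0.30), and Ptger4 to Man2a2, Agpat3 and Rnf166 (0.21). A gene that does not vary would lie at about the member's own SD. That SD was 1.68 for Ptgs2, 1.17 for Ptgs1, 0.835 for Ptges and 0.435 for Ptgis. It was 0.885 for Hpgd, 0.465 for Ptger2 and 0.282 for Ptger4. The measure includes the difference between compartments, and shared regulation was not tested.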

How the data were processed

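RNA was sequenced from 20 tendon cores and 12 hydrogels. The authors depleted ribosomal RNA, prepared stranded libraries and obtained counts with kallisto. Their threshold for RNA integrity was low and left out only pools of very poor integrity or too little RNA. All hydrogel pools but not all core pools passed. The part of RNA quality in the differences between core and hydrogel was not tested. The submitters' processing notes give version 0.46.1 of it and name GRCm39 and DESeq2, while the sources used here do not give the release of the annotation. The deposited values are whole-number estimated counts for each Ensembl gene, without normalization. Of 25700 genes, 25587 had a symbol in the annotation used here (GRCm38). Counts split over several transcripts or shared with overlapping genes depend on that estimation.

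Groups were taken from the sample titles. Genes were filtered with filterByExpr, scaled by TMM and tested with edgeR (version 4.0.16, R version 4.3.3), without a block, on the samples of the groups compared, with Benjamini-Hochberg adjustment over all genes tested. Log2 CPM used a prior count of 2, and ratios of counts a pseudocount of 0.5. The named genes were the 8 members, Il6, at most 4 called genes with the lowest p per list and comparison (more where the text gives all), and the 3 genes most like each member. The members and lists were chosen with earlier results of these data known.

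As alternatives, RLE factors, DESeq2 (version 1.42.0), library totals, no filter, a floor of 10 counts in each sample, no threshold on the fold, the other p threshold, blocks for the replicate number or the title code, all 7 groups in 1 fit, and the omission of each sample were tried. In most comparisons same-numbered samples deviated together (residual correlation over 0.1 in every pair, 0.26 to 0.60 in the hydrogels). The exceptions were KO against WT in cores beside fibroblasts (-0.19 to 0.60) and in cell-free hydrogels (-0.05 to 0.52). The number was therefore taken to pair the other comparisons within a compartment. Between hydrogel and core, samples were matched and blocked by the title code with the N number of the titles. Nothing states that the pooled hydrogel cells came from separate cultures, and p-values there may measure technical spread. The scripts were tested on simulated counts.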

Additional observations from a re-analysis of the deposited data

Results flagged for a closer look

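In 4 of 56 sets of values (8 genes in 7 groups), 1 sample stood apart from its group by Dixon's test at the 95% level, and chance gives about 5% of such sets. Ptgs1 was highest in replicate 2 of the WT cores beside fibroblasts, at 6.81 CPM, where the rest of the group had 1.99 to 2.70 CPM. Without it Ptgs1 passed the threshold for KO over WT cores beside fibroblasts and for macrophages over fibroblasts, and the latter also passed with it under DESeq2, library totals, the replicate block and all 7 groups in 1 fit. Ptger2 was highest in replicate 1 of the hydrogels around KO cores, at 10.9 CPM, and the other 5 ran from 1.40 to 4.57 CPM. Ptgds was highest in replicate 2 of the KO cores in cell-free hydrogels, at 0.211 CPM, and in replicate 3 of the KO cores beside fibroblasts, at 0.130 CPM, both from fewer than 6 counts. No cause was tested for any of them.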

How the results depend on the processing

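Of 672 values refitted with 1 sample left out, 576 kept their direction and their side of the threshold, and so did 647 of 700 values under the other settings. Where a value changed sign or a call, the cause was not tested.

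Among the 7 tested members, the count called for KO over WT in the hydrogel (1) was 2 with DESeq2, RLE factors or no fold threshold. Of all 15227 genes, these settings called 141, 116 and 404. The member count was 3 with all 7 groups in 1 fit (286 of all 17482 genes) and 0 with the adjusted p (0 of all genes). The count for KO over WT in cores beside fibroblasts (1) was 2 with no fold threshold (1428 of all 16088 genes) and 0 with the adjusted p (0 of all genes). For fibroblasts over cell-free in WT cores (0), it was 1 with DESeq2, library totals, the unadjusted p, the replicate block or the title code as a block. Of all 16188 genes, these settings called 774, 630, 1221, 511 and 559. In KO cores (0) the member count was 1 with the unadjusted p (7.14% of all genes) or the replicate block, whose count of all genes is given above. For macrophages over cell-free (1), it was 3 with the unadjusted p (10.3% of all genes). Ptger4 passed there with library totals and with all 7 groups in 1 fit. For macrophages over fibroblasts (3), the count was 5 with the unadjusted p (16.5% of all genes). There DESeq2 also called Ptgs1 and Ptger4. Library totals called Ptgs1, Hpgd and Ptger4 but not Ptgs2 and Ptges. With all 7 groups in 1 fit Ptgs1 passed, and Ptgs2, Ptges and Hpgd did not. For genes named here without a count of all genes, no member count is drawn. The replicate block pairs the hydrogels too, and the call of Ptgs2 held there (0.71, unadjusted p = 0.0115 from edgeR). Beside the calls of Hpgd and Ptgs1 given with its result, the replicate block changed no call of a member.

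Some log2 differences close to 0 changed sign. Ptgs1 for fibroblasts over cell-free in WT cores was 0.011 with no filter and 0.012 with all 7 groups in 1 fit, and Ptger4 was -0.082 with library totals. For KO over WT, Ptgis was 0.0026 with library totals in cores beside fibroblasts. In cores in cell-free hydrogels it was 0.0016 with DESeq2, 0.0015 with RLE factors, 0.011 with no filter, 4.6e-05 with at least 10 counts per sample, 0.014 with the replicate block and 0.0072 with the title code as a block. Ptgis for macrophages over cell-free was -0.013 with no filter. For hydrogel over core with library totals, Ptger2 was -0.0096 and Ptger4 -0.014 in WT assembloids, and Ptger4 was -0.0066 with at least 10 counts and, in KO assembloids, 0.0018 with no filter. With library totals the interaction of genotype and fibroblasts was 0.028 for Ptgis and 0.068 for Ptger2. The log2 ratio of Ptgs2 to Ptgs1 beside macrophages was -1.86 with the replicate block too, where 4 pairs cannot give an exact p under 0.125.

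Leaving out 1 sample gave these lowest and highest values. In the hydrogel, KO over WT, 1 to 3 members were called, where 85 to 304 of all genes were. Hpgd ran from -0.47 to 0.13, Ptger4 from -0.033 to 0.042 and the log2 ratio of Ptgs2 to Hpgd from 0.63 to 1.42. The call of Ptgs2 was kept each time, at 0.56 to 0.92. For fibroblasts over cell-free in WT cores, 0 to 1 were called (49 to 640 of all genes). Ptgs1 ran from -0.56 to 0.18, Ptgs2 from -0.026 to 0.44 and Ptger4 from -0.082 to 0.11. For KO over WT in cores beside fibroblasts, 1 to 2 were called (270 to 570 of all genes), with Ptgs2 at 0.81 to 1.27 and Ptgis at -0.13 to 0.086. In cell-free hydrogels Ptgs1 ran from -0.10 to 0.14, Ptgis from -0.11 to 0.11 and Hpgd from -0.18, without KO replicate 1, to 0.97. For macrophages over cell-free, 0 to 1 were called (4.6% of all genes with every sample kept). Ptgis ran from -0.10 to 0.14 and Hpgd from -0.12 to 0.37. The log2 ratio of Ptgs2 ran from -1.39 to -0.62 against Hpgd and from -2.11 to -1.57 against Ptgs1. For macrophages over fibroblasts 1 to 4 were called (10.8% of all genes with every sample kept). For hydrogel over core, Ptger2 ran from -0.061 to 0.10 and Ptger4 from -0.045 to 0.13 in WT assembloids. In KO assembloids 3 to 4 were called (41.6% of all genes with every sample kept). There Ptger2 ran from -0.12 to 0.50 and Ptger4 from -0.18 to 0.067. The interaction ran from -0.15 to 0.081 for Ptgis and from -0.20 to 0.13 for Ptger2.

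Depth limits Ptgds, with at most 10 counts in a sample, and Ptgs1 and Ptger2 in the cores, with 59 to 235 counts.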

Other observations

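The level of Ptgs2 followed that of Il6 in the samples, a relation chosen after seeing the values, among 21 computed (7 members in 3 sets of samples). In the 6 hydrogels around KO cores Pearson's r of the log2 levels was 0.981 (exact permutation p = 0.00278, adjusted 0.0455) and Spearman's rho was 1.00 (exact permutation p = 0.00278, adjusted 0.0396). Without the 2 samples farthest from the median of Il6, r was 0.943 over 4 samples. The adjustment ran over all 21 relations, including those of the cores, whose p is not given below. Both adjusted values under 0.05 depend on these core p-values, so they are not taken as passing. Hydrogels of a group also share title codes and may share pooled seeded cells. The exact p takes them as independent, which is not known. In the 6 hydrogels around WT cores r was 0.825 (exact permutation p = 0.0444, adjusted 0.187) and rho 0.714 (exact permutation p = 0.136), and r fell to 0.354 without the 2 farthest, so that it rested on those samples. Over the 20 cores r was 0.613 and rho 0.559, or 0.527 for r with the group means subtracted, and for Hpgd the relation ran the other way, with r at -0.509, rho at -0.624 and r at -0.409 with the group means subtracted, all given without p because cores that share a title code may share a mouse. Ptges followed Il6 in the hydrogels around KO cores with r at 0.941 (exact permutation p = 0.0222, adjusted 0.122). The samples share library depth and the composition of cells, and no cause was tested.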
